A study of Mus musculus with 2 samples.

Results

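Lrg1, Ubd, Ch25h, Art3, Apold1 and Rasip1 were far more abundant in one library of sorted mouse mammary cells than in the other, and none of the 6 is a routine marker of a cell type in this tissue. They were picked from 54438 annotated genes because their TPM (a level scaled to transcript length and to the library total) was very high in the library titled W1 relative to the one titled W2, so that difference is a description here and carries no test. The picking rule gives no threshold. The study set basal cells, the outer epithelial layer of the gland, that carry Pd-l1 on the surface beside basal cells that lack it. Pd-l1 is a ligand that restrains T cells. Wild type C57BL/6 mice, all 8 weeks old, were the source of both libraries, which were made with Smart-seq chemistry for small inputs and a stranded kit. Apart from the titles the labels of W1 and W2 are alike, so which one carried Pd-l1 is unknown and both stay without a group. There is 1 library of each title, hence no replicate, no test and no spread. How many mice or cells went in, and how cells were gated, is not stated.

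The 2 libraries differed widely and the label of basal cells did not hold for both. Markers of basal and myoepithelial cells summed to 59.99 TPM over 11 genes in W1 and to 40072 TPM in W2, with Krt5 at 0 reads in W1. Markers of endothelial cells summed to 5202 TPM over 18 genes in W1 and to 8.29 TPM in W2. The comparison covered genes that reached 1 TPM in either library, and higher means by 2-fold or more on the TPM + 1 scale. Of 12587 such genes, 34.7% were higher in W1 and 32.9% in W2. Depth, recovered from the steps between deposited values, was 3055829 reads in W1 and 3800016 in W2. Intervals are at 95%, exact, and made from reads; without molecular identifiers they hold the counting error alone. In bulk RNA, fewer cells of a type and less RNA per cell cannot be told apart.

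The 6 genes act at different places in a cell. Lrg1 encodes a secreted leucine-rich glycoprotein, made by liver, neutrophils and activated endothelium, that binds endoglin and alters TGF-beta signalling in vessels. Ubd encodes a ubiquitin-like protein that is induced by inflammatory cytokines, is attached to other proteins through the enzymes of Uba6 and Ube2z, and sends them to the proteasome. Ch25h encodes an interferon-induced enzyme that hydroxylates the side chain of cholesterol, giving an oxysterol that restrains sterol synthesis and feeds the ligand pathway of the receptor Gpr183. Art3 belongs to the family of ADP-ribosyltransferase ectoenzymes. Apold1 is an early response gene described in endothelial cells. Rasip1 encodes an endothelial effector of the small GTPase Rap1 that is needed for vessel lumen formation.

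All 6 genes were 2-fold or more higher in W1, where they together made up 0.938% of TPM, against 0.00532% in W2. The rule picked them for this, so nothing is read from the count; over all compared genes the share was 34.7%, and over protein coding genes with 1 listed transcript, the type of 5 of the 6, it was 28.7% (39.1% higher in W2). Within W1 the levels ran from 3346 TPM for Ubd to 610 TPM for Rasip1. Within W2 they ran from 0 for Lrg1 to 22.9 TPM for Ubd. No level of a gene in W2 came near the lowest level in W1, as the plot of levels in both libraries shows.

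**Figure D1:**
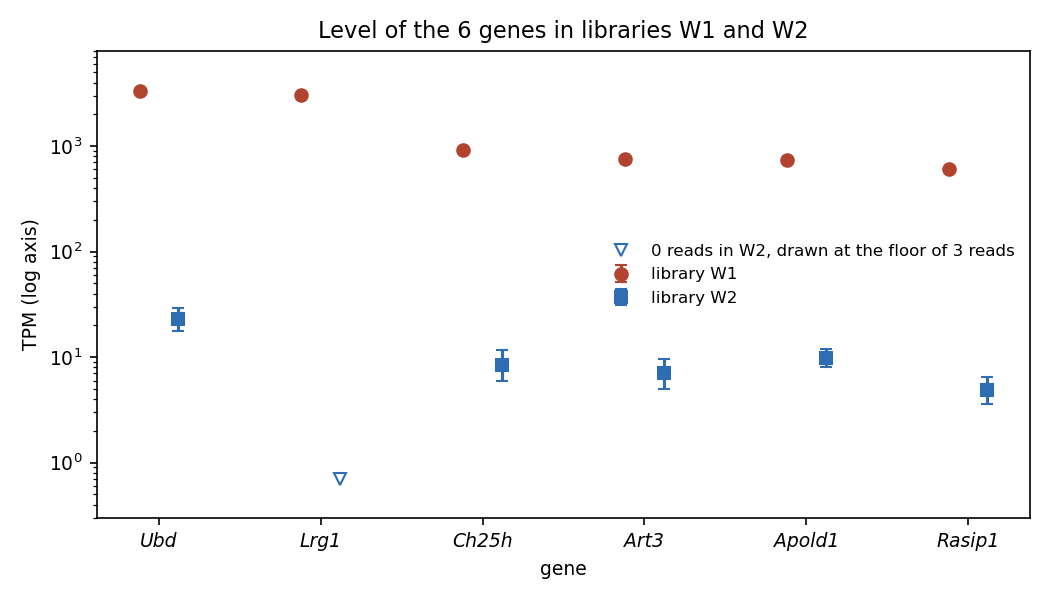
TPM of each of the 6 genes (log axis) in W1 (circles) and W2 (squares), with exact 95% Poisson intervals on reads; the open triangle is Lrg1 in W2, which had 0 reads and is drawn at the level of 3 reads. The values of W1 sit between 610 and 3346 TPM and those of W2 at or under 22.9 TPM.

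Lrg1 (ENSMUSG00000037095.8, GRCm38 chromosome 17, 56119678 to 56122001, minus strand) was the only one of the 6 with no read in W2. It stood at 3026 TPM (interval 2974 to 3078) in W1, from 12908 reads. With a floor of 3 reads for W2, Lrg1 was at least 4332-fold higher in W1. Its log2 ratio of TPM + 1, at 11.56, was the largest of all 12587 genes compared. By the floor it was not the largest: Lyve1, also at 0 reads in W2, had a log2 ratio of 11.23 but was at least 7076-fold higher, from 21085 reads. At the proportion of reads seen for Ubd, the 12908 reads would have had a counterpart of 88.9 reads in W2, and at that of Apold1 173.7 reads. The 0 reads of Lrg1 in W2 were thus below the proportion of the other 5 genes. All 6 were picked on this contrast, so nothing more is read from it, and Cldn5 and Thbd also had 0 reads in W2.

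Ubd (ENSMUSG00000035186.6, chromosome 17, 37193892 to 37196095, plus strand) had the highest level of the 6 in both libraries. It stood at 3346 TPM (3279 to 3415) in W1 and 22.9 TPM (17.7 to 29.2) in W2, from 9440 and 65 reads. The ratio was 146-fold (115 to 190).

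Ch25h (ENSMUSG00000050370.5, chromosome 19, 34473778 to 34475164, minus strand), a gene of 1 exon, stood at 910 TPM (881 to 939) in W1 and 8.50 TPM (5.95 to 11.8) in W2. These levels rest on 3823 and 36 reads, a 107-fold difference (77.2 to 153). Its promoter is printed because matches to several motifs lie close together in it. Capitals mark the TATA box (TATAAA), the core of cyclic AMP response elements (TGACG) and an NF-kB pattern (GGGA and CC with 4 bases between them), each searched on both strands; the common ETS core is left unmarked in all windows printed. The RefSeq window is cut at the first base transcribed in either annotation, at chr19:34475165-34475398 on the minus strand of GRCm38.p6.
Ch25h promoter: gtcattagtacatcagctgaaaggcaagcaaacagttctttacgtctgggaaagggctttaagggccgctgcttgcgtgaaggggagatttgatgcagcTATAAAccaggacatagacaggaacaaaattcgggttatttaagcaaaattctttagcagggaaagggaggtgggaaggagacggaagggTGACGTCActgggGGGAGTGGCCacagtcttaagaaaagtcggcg
In this window 2 TGACG cores of opposite strand overlap, starting 61 and 58 bases before the RefSeq start, and the NF-kB pattern starts 48 bases before it. Of all 32851 RefSeq promoter windows of 300 bases, 20.8% hold TGACG, 20.7% the NF-kB pattern and 13.6% TATAAA.

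Art3 (ENSMUSG00000034842.16, chromosome 5, 92331827 to 92414628, plus strand) stood at 749.6 TPM (726.9 to 772.9) in W1 and 7.04 TPM (5.01 to 9.63) in W2, a 106-fold difference (77.7 to 149.9). Nearly all of it was counted on a transcript that encodes no Art3 protein. Of 19 listed transcripts, Art3-214, annotated as a processed transcript without a coding sequence, held 4120 of 4121 reads in W1 and all 39 in W2. It has 3 exons and runs from 92331841 to 92346770. The 17 protein coding transcripts had 1 read in W1, on Art3-207, and 0 in W2.

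How the counting treated reads that match more than 1 isoform is not stated, and this bears on the contrast between transcripts. In all, 7 of the 17 coding transcripts have 0 stretches of 50 bases (50-mers) that occur in no other listed transcript. The other 10 do have such 50-mers, 722 in all, and Art3-214 has 1659. Per 1000 of them, W1 had 2480 reads on Art3-214 and 1.39 reads on the coding transcripts. The coding transcripts of Art3 were thus at or near 0 also where they could be counted.

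The last exon of Art3-214 makes up 91.4% of its length and runs into the chemokine gene Cxcl10, which lies on the opposite strand. It shares 133 bases with Cxcl10-201, 7.33% of Art3-214. Cxcl10 had 4 reads in W1 and 0 in W2, all on Cxcl10-204, an isoform with a retained intron. Cxcl10-201 has 45 50-mers of its own, so its 0 reads give little information. The tables hold no positions of reads within a transcript, and whether counting used the strand is not stated, so reads of Art3-214 and of RNA from the other strand cannot be told apart. Cxcl9, a chemokine gene induced by interferon gamma that ends 3748 bases before Art3, stood at 133 TPM in W1 with 0 reads in W2. Cxcl11, inside Art3, had 0 reads in both libraries.

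**Figure D2:**
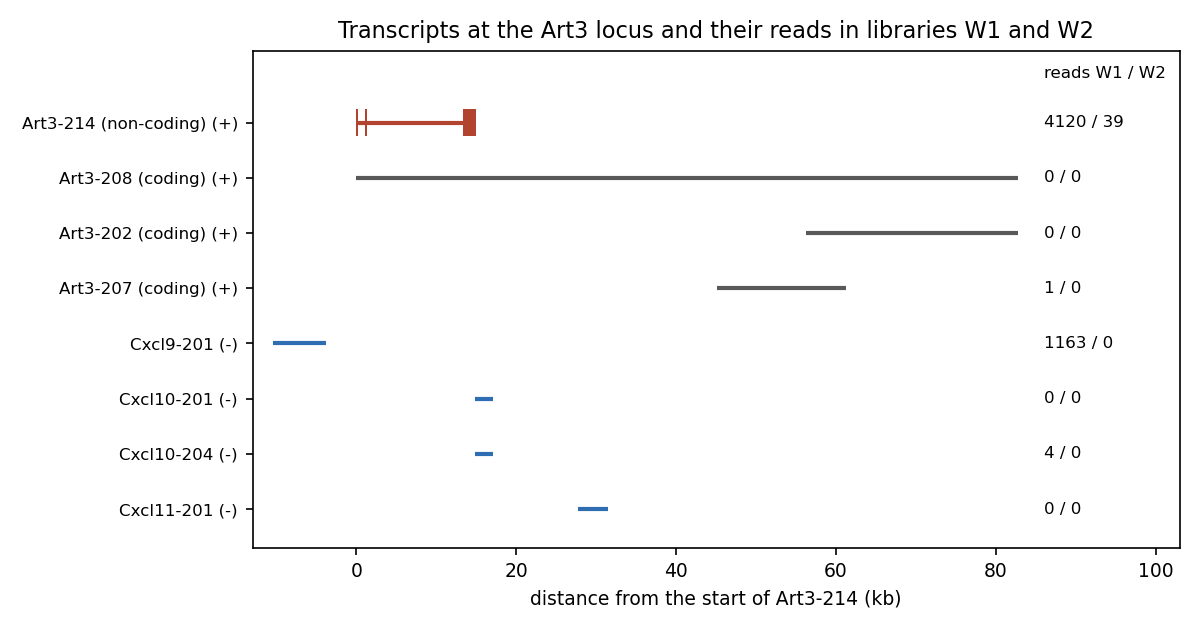
Selected transcripts at the Art3 locus by distance from the start of Art3-214 in kb, as spans with their strand (plus or minus); boxes on Art3-214 are its exons, and the numbers at the right are reads in W1 and W2. Art3-214, with 4120 and 39 reads, ends at Cxcl10 and stops short of the spans of Art3-202 and Art3-207.

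RefSeq lists 3 starts for Art3. The sequence before the first is shown because Art3-214 and 4 coding transcripts begin there. Capitals mark TATAAA on either strand. The window is chr5:92331577-92331826, directly before the gene, on the plus strand of GRCm38.p6.
Art3 first start: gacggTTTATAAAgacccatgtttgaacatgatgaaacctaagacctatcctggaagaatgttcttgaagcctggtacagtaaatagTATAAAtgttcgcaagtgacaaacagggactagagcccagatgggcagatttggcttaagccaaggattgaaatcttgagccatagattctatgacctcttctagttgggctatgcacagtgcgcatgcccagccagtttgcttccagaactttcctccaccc
It holds TATAAA starting 163 bases before the start and an overlapping pair, 1 on each strand, at 245 and 243 bases. The motif was in 13.6% of all windows. The window of the start at 92386887, where the coding Art3-212 begins, also holds the motif, starting 89 and 30 bases before that start. The window of the start at 92388134, close to where Art3-202 to Art3-206 begin, holds none.

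Apold1 (ENSMUSG00000090698.2, chromosome 6, 134981718 to 134986836, plus strand) had the smallest ratio of the 6. It stood at 736 TPM (720 to 752) in W1 and 9.83 TPM (8.06 to 11.9) in W2, from 7952 and 107 reads. The difference was 74.8-fold (61.8 to 91.4).

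Rasip1 (ENSMUSG00000044562.12, chromosome 7, 45627488 to 45639093, plus strand) stood at 610 TPM (594 to 625) in W1 and 4.91 TPM (3.62 to 6.52) in W2. These came from 5915 and 48 reads, a 124-fold difference (93.5 to 168). A pair of antisense genes inside it followed the same direction. A030001D20Rik, which shares 498 exon bases with Rasip1, stood at 659 and 11.3 TPM, a 58.5-fold difference (44.6 to 78.3). Gm45437, which shares 222, had 123 and 0 reads. Izumo1, which shares 654 exon bases on the same strand through a transcript with a retained intron, had 3 and 0 reads. Rasip1 keeps 82.3% of its 50-mers to itself on its own strand and 65.4% when both strands are considered, so part of its reads may belong to either strand. The sequence before Rasip1, which lies within that transcript of Izumo1, at chr7:45627287-45627487 on the plus strand of GRCm38.p6, is shown for comparison with that of Ch25h, since both hold the NF-kB pattern, marked in capitals.
Rasip1 promoter: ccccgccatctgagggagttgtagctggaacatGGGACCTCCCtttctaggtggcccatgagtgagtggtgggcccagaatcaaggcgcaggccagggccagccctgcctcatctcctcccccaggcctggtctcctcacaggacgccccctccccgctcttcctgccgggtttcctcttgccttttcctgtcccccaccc
The pattern starts 217 bases before the RefSeq start of Rasip1. In all, 3 of the 6 genes (Ch25h, Rasip1 and Apold1) hold it, in 3 of the 8 windows of the 6 genes, beside 20.7% of all windows. None holds the IRF pattern, a pair of GAAA with 2 bases between them (3.44% of all windows). The AP-1 pattern TGANTCA (7.81%) and the GC box CCGCCC (35.7%) are absent too. The STAT pattern TTCNNNGAA (8.30%) was found for Apold1 alone and TGACG (20.8%) for Apold1 and Ch25h. All 6 hold the ETS core GGAA, as do 96.0% of all windows. A match describes these letters only, and the RefSeq window of Apold1 lies inside the transcript that GENCODE annotates.

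By ratio the order was Lrg1, Ubd, Rasip1, Ch25h, Art3 and Apold1. The intervals of Ubd, Rasip1, Ch25h and Art3 overlapped one another, so their order is not resolved by the counts. The interval of Apold1 lay below those of Ubd and Rasip1 and overlapped those of Ch25h and Art3. Among the 5 genes read in both libraries, W2 had 6.89 reads for each 1000 in W1 for Ubd and 13.5 for Apold1, with the other 3 between them.

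**Figure D3:**
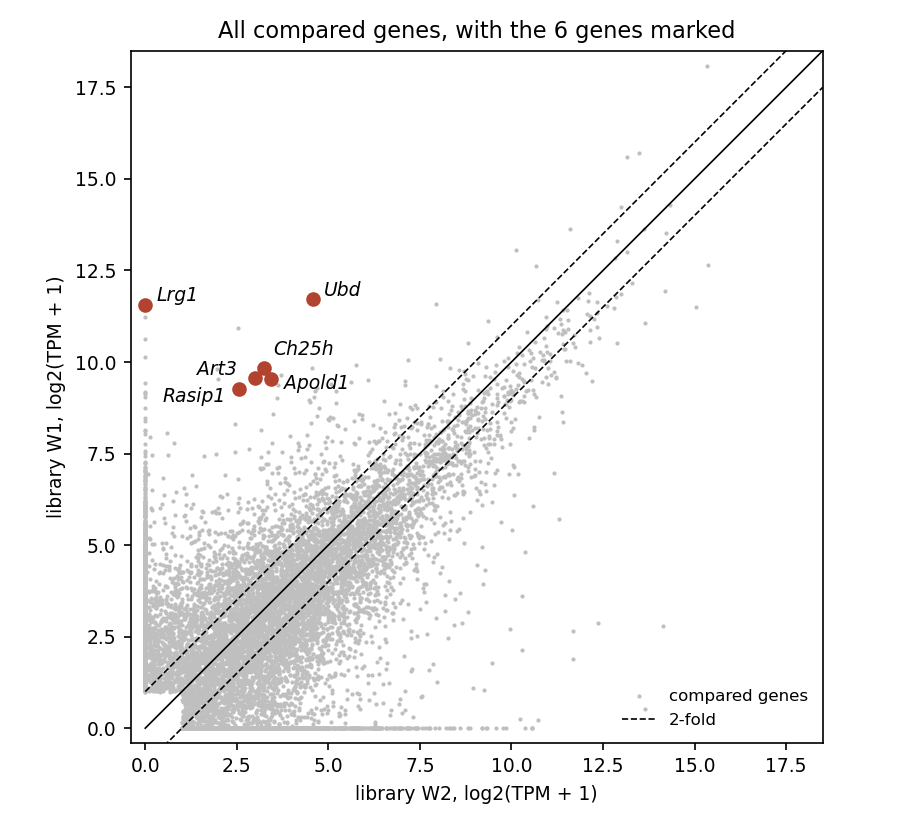
Each gray point is 1 of 12587 compared genes at its log2(TPM + 1) in W2 (x axis) and W1 (y axis); the solid line marks equal levels and the dashed lines 2-fold. The 6 named genes (large points) lie far above the upper dashed line, Lrg1 on the left edge at 0 reads in W2.

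The 6 genes were not alone in this region of the comparison. With predicted genes, ribosomal protein genes and pseudogenes passed over, 58 protein coding genes had a log2 ratio at or above that of Apold1, so 52 were other genes. Of the 58, 11 are on the endothelial, lymphatic or venous and activated endothelial marker lists. These lists hold 14, 6 and 7 compared genes, and 8606 protein coding genes were compared before any were passed over. The lists were chosen with earlier results of these data known, so nothing is read from the 11. The genes closest to the 6 in both levels, by distance in log2(TPM + 1) over the 2 libraries, were few and recurred. Nearest to Lrg1 were Lyve1, a hyaluronan receptor of lymphatic vessels (2408 TPM and 0 reads), Cldn5 and Thbd. Cd55, a complement regulator, stood at 805 and 11.99 TPM and was nearest to Ch25h, Art3 and Apold1, and Jam3, a junctional adhesion molecule, at 514 and 11.1 TPM, was second for all 3. Il2rg (739 and 2.94 TPM) and S1pr1 (902 and 2.91 TPM), a cytokine receptor chain and a sphingosine 1-phosphate receptor, were nearest to Rasip1. Ubd had no close match: Cpe, at 921 and 22.5 TPM, was 1.86 units away, against 0.29 for Apold1 and Cd55. A likeness over 2 libraries says nothing of shared control.

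The picking rule did not name the number of isoforms, but it asked for high TPM in W1, and that is not independent of isoform number here. Except for Art3, each of the 6 has 1 listed transcript, and so does 17.8% of the 8606 protein coding genes compared. At 600 TPM or more in W1 the share was 55.3%, or 47 of 85 genes. The transcripts of Lrg1, Ubd and Apold1 share none of their 50-mers with another listed transcript on either strand. A read of 50 bases from these 3 genes thus had 1 possible source among the listed transcripts, which does not hold for most genes with many isoforms.

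Genes that work with each of the 6 were described from 10 lists with 159 listed genes. Of 109 compared, 41 (37.6%) were higher in W1 and 23 (21.1%) in W2, with a median log2 ratio of 0.15, beside 34.7%, 32.9% and -0.07 over all genes. Another 43 had 0 reads in both libraries. Most have many isoforms, so that 0 reads does not show a gene to be silent. Other scalings moved the median of all genes to as much as 0.27, so list medians are to be read against it. The pathway genes spread over both directions, as the plot of pathway ratios shows. The highest log2 ratio among them was 5.78, for Art2a-ps, below the 6.09 of Apold1. Nothing is read from this, since the 6 were picked for high ratios and only 58 named protein coding genes reached that of Apold1.

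**Figure D4:**
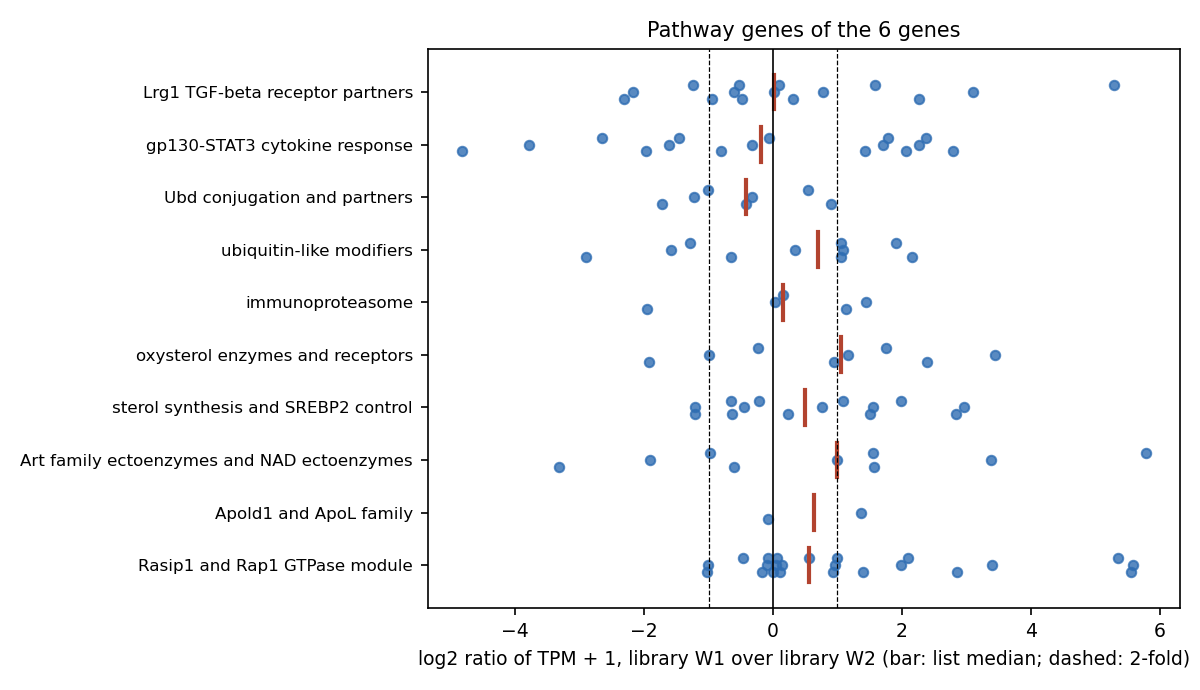
Log2 ratio of TPM + 1 in W1 over W2 for the compared genes of each pathway list; each point is a gene, the red bar is the list median and the dashed lines mark 2-fold. List medians run from -0.42 to 1.06, and no gene reaches the 6.09 of Apold1, 1 of the 6 genes picked for high ratios.

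Around Lrg1, the TGF-beta list was divided, with 4 of 15 compared genes higher in W1, 3 higher in W2 and a median of 0.01. Eng, which encodes endoglin, the co-receptor that Lrg1 binds, stood at 82.5 and 1.15 TPM, a 71.9-fold difference (26.8 to 272) from 66 and 4 reads. These lie on isoforms of different length, and scaled to depth alone the reads differed 20.5-fold. The target gene Id1 stood at 24.5 and 1.98 TPM, its relative Id3 at 493 and 949 TPM, within 2-fold, and the ligand gene Tgfb1 at 39.8 and 7.53 TPM. Toward W2 were Smad3 (9.40 and 50.6 TPM) and the inhibitory Smad6 (1.33 and 9.49 TPM). The receptor genes Tgfbr1 (32.5 and 45.8 TPM) and Tgfbr2 (14.1 and 14.0 TPM) lay within 2-fold, and Acvrl1, a receptor with 11 listed isoforms, had 0 reads in both.

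Lrg1 is also a target of cytokines that signal through gp130 and STAT3, and that list had 7 of 16 genes higher in W1 and 6 in W2 (median -0.19). The signalling genes Jak1 (709 and 136 TPM, 5.21-fold, 4.96 to 5.47), Stat3 (18.1 and 1.74 TPM, but 4.16-fold in reads scaled to depth) and Il6st, which encodes gp130 (15.8 and 2.49 TPM), were higher in W1. Lcn2 (0 and 27.4 TPM), the ligand gene Il11 (0 and 12.8 TPM) and Fgl2 (0 and 5.28 TPM) were higher in W2. The feedback inhibitor Socs3 lay within 2-fold at 410 and 512 TPM.

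Of 7 compared genes of the conjugation pathway of Ubd, 0 were higher in W1 and 3 in W2 (median -0.42), whereas with FPKM or with recovered reads scaled to depth 1 was higher in each library. Its activating enzyme gene Uba6 stood at 2.33 and 5.67 TPM and its conjugating enzyme gene Ube2z, with 1 listed transcript, at 27.7 and 66.1 TPM, a 2.39-fold difference toward W2 (2.10 to 2.72) that was 1.93-fold in reads scaled to depth. Other ubiquitin-like modifiers went both ways (5 of 10 higher in W1, 3 in W2, median 0.70). Isg15, the interferon-induced modifier, stood at 106 and 22.98 TPM (4.62-fold, 3.42 to 6.34), whereas Ubb stood at 1037 and 3110 TPM. Of 5 compared immunoproteasome genes, 2 were higher in W1 and 1, Psmb9, in W2 (6 and 32 reads).

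Of 8 compared genes of the oxysterol pathway around Ch25h, 4 were higher in W1 and 1 in W2 (median 1.06), and 2 and 0 with a pseudocount of 5. The cholesterol exporter genes Abca1 (194 and 16.9 TPM, 11.5-fold, 10.5 to 12.6) and Abcg1 (16.4 and 4.18 TPM), both targets of the liver X receptors that oxysterols activate, and Mylip (30.3 and 12.9 TPM), another such target, were in this direction. Cyp27a1, which hydroxylates another position of the cholesterol side chain, had 23 and 0 reads. Soat1, an enzyme that esterifies cholesterol, stood at 0.67 and 5.31 TPM, but its 17 and 12 reads, on isoforms of different length, were 1.76-fold higher in W1 when scaled to depth. Hsd3b7, the enzyme that acts after Cyp7b1, stood at 3.61 and 8.17 TPM, just within 2-fold on the TPM + 1 scale. Cyp7b1, the next enzyme after Ch25h on the way to the Gpr183 ligand, stood at 5.03 and 2.12 TPM, within 2-fold on the TPM + 1 scale, and Gpr183 had 0 reads in both. Of the 14 genes of sterol synthesis and its control that were compared, 6 were higher in W1 and 2 in W2 (median 0.49). Among the genes named here, Sc5d (110 and 3 reads) and Insig1 (26.4 and 8.39 TPM) were on one side, and Nsdhl (8.98 and 22.1 TPM) and Fdft1 (0 and 4 reads) on the other. Nsdhl was no longer past 2-fold, at 1.99-fold, in reads scaled to depth.

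In the list of ADP-ribosyltransferases and other NAD ectoenzymes, 4 of 9 compared genes were higher in W1 and 2 in W2 (median 0.99). Art2a-ps (53.8 TPM and 0 reads) and Art2b (9.37 TPM and 0 reads) are close copies of each other, so the split of reads between them is uncertain. The NAD glycohydrolase gene Cd38 stood at 46.3 and 15.1 TPM, and Enpp1 had 0 and 186 reads. Art1 and Art5 had 0 reads in both libraries and Art4 had 2 reads in W2.

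Apold1 had few measurable relatives. Of 13 genes of the apolipoprotein L family 10 had 0 reads in both libraries and 2 were compared, Apol9a (1.57 TPM and 0 reads) and Apol10b (7.95 and 8.46 TPM).

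The Rap1 module around Rasip1 had 8 of 23 compared genes higher in W1 and 2 in W2 (median 0.55). Arhgap29, which encodes a GTPase activating protein that works with Rasip1, had 648 and 0 reads. With the floor of 3 reads, which covers counting error alone, that is at least 217-fold toward W1. Rap1a (325 and 0 reads), the exchange factor gene Rapgef5 (283 and 0 reads), Nck1 (110 and 0 reads) and Rac1 (26.1 and 2.76 TPM) were in the same direction. Arhgap29, Rap1a, Rapgef5 and Nck1 have 9, 4, 7 and 4 listed transcripts, so their 0 reads do not show them to be silent in W2. The close relative Rap1b stood at 641 and 886 TPM, within 2-fold, and Rhoa (321 and 309 TPM) and Cdc42 (517 and 478 TPM) were nearly level. Rap2b (1.94 and 4.97 TPM) and Rras (41.5 and 84.5 TPM) were higher in W2. In reads scaled to depth Rap2b was still 2.07-fold higher in W2, and Rras was 1.51-fold higher. With a pseudocount of 1 added to the scaled reads, neither was past 2-fold. Radil, the other partner of Rasip1, had 0 reads in both libraries.

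Of 32 compared genes within 100 kb of 1 of the 6, 18 were higher in W1, 7 in W2 and 7 lay within 2-fold, beside 34.7% and 32.9% higher in W1 and W2 over all compared genes. Without the 3 that share exon bases with a member (A030001D20Rik, Gm45437 and Gm26902), a choice made after seeing the data, 15 of 29 were higher in W1. They were unevenly placed, as the plot of neighbours shows. Around Rasip1, 7 of 9 were higher in W1, most with 0 reads in W2 and few reads in W1. Fgf21, 11998 bases away, had 3 and 65 reads. Next to Lrg1, Sema6b (341 and 0 reads) lies 1084 bases away, and Tnfaip8l1, 40476 bases away, stood at 174 and 0.138 TPM from 1278 and 1 reads. Gm44397, an annotated microRNA gene inside Tnfaip8l1 on the opposite strand, had 195 and 0 reads, while Mydgf and Chaf1a were within 2-fold. Both neighbours of Ch25h were higher in W1. They were Gm26902, a non-coding gene that starts in Ch25h on the opposite strand (110 and 2 reads), and the interferon-induced gene Ifit2 (739 and 0 reads), 75530 bases away. Around Art3, Cxcl9 and Sdad1 (150 and 47 reads) were higher in W1, and Nup54 (115 and 275 reads), Scarb2 (531 and 1446 reads) and the small RNA gene Gm26039 (3 and 11 reads) in W2. Around Ubd, H2-M3 (120 and 51.98 TPM), an MHC class I gene, was 2.32-fold higher in W1 (1.98 to 2.72). Olfr94, 330 bases from Ubd on the opposite strand, had 25 and 0 reads. The neighbours of Apold1 went both ways, with 1 of 5 higher in W1 (Cdkn1b, 20 and 0 reads) and 2 in W2. Each of the 6 had at least 1 neighbour higher in W1, but nothing is read from that, since 34.7% of all compared genes were. Art3, Apold1 and Rasip1 also had neighbours higher in W2.

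**Figure D5:**
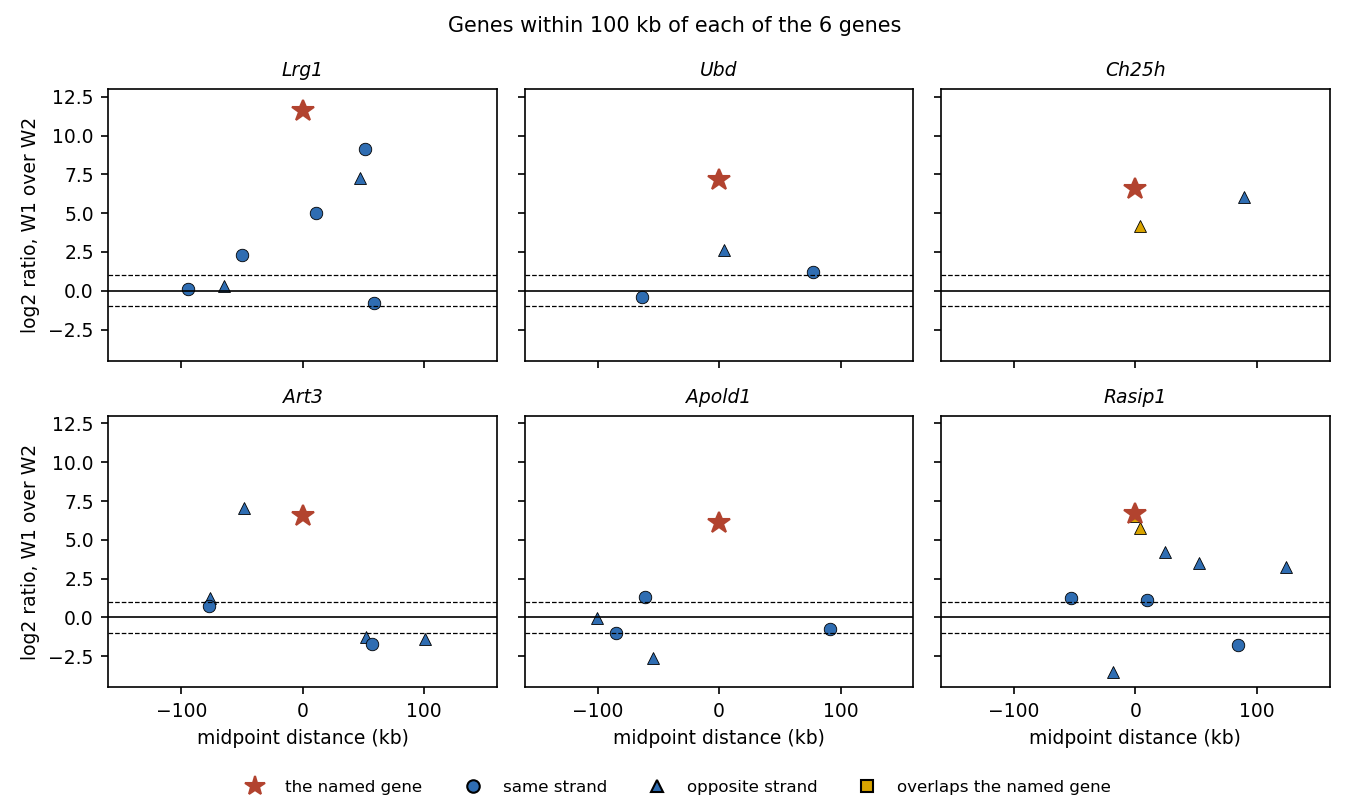
Log2 ratio of TPM + 1 in W1 over W2 (y axis) of compared genes within 100 kb of each of the 6 genes, by the distance between midpoints in kb; stars are the named genes, circles and triangles neighbours on the same and the opposite strand, and yellow marks overlap. Neighbours near Lrg1, Ch25h, Art3 and Rasip1 include genes with ratios over 4, and those of Apold1 lie between -2.61 and 1.29.

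Markers of several cell types differed between the libraries beside the 6 genes. Fibroblast markers were higher in W2 in 6 of 6 compared genes (3.19 and 206 TPM in sum). Markers on the joint list of luminal and general epithelial cells were higher in W2 in 7 of 9 (284 and 4932 TPM). Of that list Krt8 gave 0.17 and 1691 TPM and Epcam 0 and 1511 TPM. Kit went the other way (25.5 TPM and 0 reads), and Elf5 had 0 reads in both libraries. Endothelial markers were higher in W1 in 14 of 14 compared genes (median log2 ratio 6.26), and venous or activated endothelial markers in 5 of 7, where they summed to 999 TPM in W1 and 1641 TPM in W2, of which Icam1 gave 241 and 1422 TPM. Tek (1 and 0 reads), Tie1 (2 and 0 reads) and Vwf (12 and 1 reads) were near 0, and Erg had 0 reads in both. Lymphatic markers were higher in W1 in 3 of 6 and summed to 13139 and 8078 TPM, of which Ccl21a gave 10177 and 7542 TPM. Lyve1, Prox1 and Flt4 had 0 reads in W2. Reln went the other way (2 and 158 reads), and Pdpn lay within 2-fold at 438 and 531 TPM, as did Ccl21a. Leukocyte markers were compared for 3 of 12 genes, of which Cd79a (32.8 TPM and 0 reads) and Lyz2 (46.6 TPM and 0 reads) were higher in W1, while Ptprc had 6 and 0 reads; the list summed to 89.2 and 7.17 TPM. Lrg1 is also made by neutrophils and liver. Of 10 neutrophil markers 9 had 0 reads in both libraries, among them Ngp and Retnlg, which have 1 listed transcript each, and Camp had 2 reads in W1. All 5 hepatocyte markers had 0 reads in both. The part of endothelial or other cells in the levels of the 6 genes was not tested.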

How the data were processed

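RNA of sorted mammary cells was measured in 2 libraries. The authors deposited TPM and FPKM (the same quantity before the final scaling) for 137767 Ensembl transcripts. Bowtie 0.12.2 and the builds mm8 and GRCm38 appear in the tool list, per the submitters' processing notes, and the role of either build is not stated. Counting tool, annotation and strand use are likewise not given in the sources used here. There were 0 other value columns.

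GENCODE M21 on GRCm38, perhaps not the authors' annotation, held 137654 of the identifiers, TPM was summed per gene, and coordinates are those of M21. FPKM times transcript length fell within 0.1 read of a whole multiple of 1 step for 98.42% and 98.00% of transcripts above 0, which gave reads and depth. Intervals are exact Poisson (levels) and Clopper-Pearson (ratios) at 95%, and the floor is 3 reads. Fold changes use TPM, and log2 ratios TPM + 1, which understates the difference of low genes. No test was made, since there is 1 library of each title. Steps were tested on simulated data. Members and lists were chosen with earlier results of these data known. The genes named are all 6 members, the genes of each list with the largest log2 ratios and exceptions to their direction, neighbours and overlapping genes within 100 kb, and the 3 protein coding genes nearest to each member. A few others, such as partners with 0 reads, Tgfbr1, Tgfbr2, Id3, Hsd3b7, Socs3, Rap1b, Rhoa, Cdc42 and Cyp7b1, were added after their values were seen, and some genes that the rule picks are not reported here. Sequences are RefSeq promoter windows on GRCm38.p6, found for all 6 members. The scripts ran under Python 3.11.15 with scipy 1.17.1, pandas 2.3.3, matplotlib 3.10.9 and numpy 2.4.6.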

Additional observations from a re-analysis of the deposited data

How the results depend on the processing

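Each of the 6 genes was past 2-fold toward W1 under all 7 alternatives that apply to them (other pseudocounts, FPKM, recovered reads scaled to depth, 2 other scalings and only the leading transcript). The genes were picked for very high ratios in these same values, so that outcome was set in advance and nothing is read from it. Lrg1, at 0 reads in W2, went from 11.56 to 14.89 with a pseudocount of 0.1 and 9.24 with 5, where Ch25h, Art3, Apold1 and Rasip1 stood at 6.08, 5.97, 5.64 and 5.95. With recovered reads scaled to depth, Lrg1, Apold1 and Rasip1 stood at 12.05, 6.48 and 7.15, and with trimmed mean of M-values scaling of those reads at 12.05, 6.49 and 7.16. Without mitochondrial, ribosomal protein and small RNA genes Lrg1 stood at 12.34. Gm23935 alone held 27.7% and 4.13% of TPM in the 2 libraries, and the median log2 ratio of all genes went from -0.07 to 0.21 without those classes and to 0.27 with the trimmed mean. With a pseudocount of 5, 2112 and 2509 of all genes were higher in W1 and W2, against 4370 and 4142, as were 26 and 13 of the pathway genes, against 41 and 23. With 20 or more reads in at least 1 library, 2664 of all genes were higher in W1 and 3062 in W2, so that 46.5% of calls lay toward W1, against 51.3%. With recovered reads scaled to depth 5116 and 3771 were higher. Dropping the filter on low values changed no count, because a gene under 1 TPM cannot pass 2-fold on this scale. No paired analysis was possible because there is 1 library of each title. With 1 library each, depth limits the ratios through the 36 to 107 reads of W2, and no value here measures the spread between animals or preparations.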
